A study of Mus musculus with 4 samples.

Results

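The genes described here are the neuronal splicing regulators and other RNA-binding regulators of the mouse cerebral cortex. They were taken from the array by the start of their gene symbol: the CELF, ELAVL, RBFOX, NOVA, KHDRBS, PTBP, MBNL, SRRM, SRSF, TRA2, HNRNP, FXR and PUM families, and Qk. The rule found 69 genes with 125 probes, out of 20832 named genes and 39429 probes on the array. Of these, 67 genes with 121 probes could be tested, because the probe stood well above background in a channel or in both on every array. All 121 were above background on every array in both channels. The other 4 probes belonged to Mbnl3 (2 probes), Fmr1os, and Fmr1nb, which kept a second probe that was tested. The rule used symbols only, but the genes were gathered around Celf3, which was already known to be lower in these data, so its own decrease is given as a description. The question was whether that decrease was shared by the CELF family or by other classes of splicing factor.

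Splicing regulators bind short motifs in the precursor messenger RNA and decide whether the splicing machinery includes or skips a nearby exon. SR proteins (SRSF, TRA2, SRRM) mostly promote the use of exons. Many heterogeneous nuclear ribonucleoproteins (HNRNP, PTBP) oppose it, and the CELF, ELAVL, RBFOX, NOVA, MBNL, KHDRBS and Qk proteins do either, according to where they bind. Several of them are made mainly in neurons or glia and give the brain its large set of tissue-specific exons, while FXR and PUM proteins bind mature transcripts and control their translation and decay.

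The tested samples were Ndrg2-/- male mice of 3 months on the C57BL/6N background, and the control samples were wild-type males of the same age and background. Ndrg2 is an astrocyte gene of the N-myc downstream regulated family. Each of 4 dual-colour Agilent arrays carried cortical RNA of 1 sample labelled Ndrg2-/- in Cy5 (red) against 1 wild-type sample in Cy3 (green), with the same replicate number. Nothing in the labels states if 1 mouse or several gave each sample, nor that different samples came from different animals, and the p-values therefore reflect only the spread among these samples. No array had the dyes exchanged, so a dye effect specific to a probe cannot be told apart from genotype. The deleted part of Ndrg2 is likewise not given in the labels. Its only tested probe was higher in the samples labelled Ndrg2-/-, at log2 ratios of 0.11, 0.37, 0.40 and 0.38 on arrays 1 to 4 (mean 0.32 ± 0.14, limma adjusted p 0.0173), so the direction of every ratio below rests on the labels alone.

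Throughout, a ratio is the log2 of the sample labelled Ndrg2-/- over the wild-type sample within an array, given as mean ± SD over 4 arrays. A level is the normalized log2 signal of a channel, and levels are compared only within a probe. A probe was called higher or lower at a limma p under 0.05 after Benjamini-Hochberg adjustment over all 27664 tested probes of the array. Median spot signals ran from 283 to 336 in red and from 94 to 122 in green, and ratios across all probes correlated between arrays at 0.356 to 0.688. The 8 neuronal marker probes were all above background and had a median ratio of 0.05. Of these, 1 was called higher (Snap25, 0.20 ± 0.06, limma adjusted p 0.0252), which makes 12.5% called, against 12.9% of all tested probes. Snap25 lies among the brightest 1% of tested probes, of which 43.7% were called higher. Below 0 were 2 marker probes, Syt1 (-0.18 ± 0.10, limma adjusted p 0.0507) and Tubb3 (-0.10 ± 0.05, adjusted p 0.128). All 7 meningeal marker probes were called higher in the samples labelled Ndrg2-/- (median 0.50, range 0.38 to 0.59), where 7.41% of all tested probes were. Channel levels did not overlap for 1 of the 7 (14.3%, against 13.5% of all tested probes).

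Across all the splicing and RNA-binding regulators, 11 probes were higher and 5 were lower in the samples labelled Ndrg2-/-, and 105 were not called. The called share was 13.2%, against 12.9% of all tested probes. Higher calls made up 9.09% of the member probes, against 7.41% of all tested probes, and lower calls made up 4.13%, against 5.54% of all tested probes. The median ratio was 0.01 for the members and 0.01 for all tested probes. As a group, these genes were therefore called about as often as the rest of the array. Channel levels of the samples labelled Ndrg2-/- and of wild type did not overlap for 17 member probes (14% of them), against 13.5% of all tested probes. A change past 1.5 fold, the size the series' design text names, was reached by 1 member probe, that of Celf3, and by 62 of all tested probes.

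**Figure D1:**
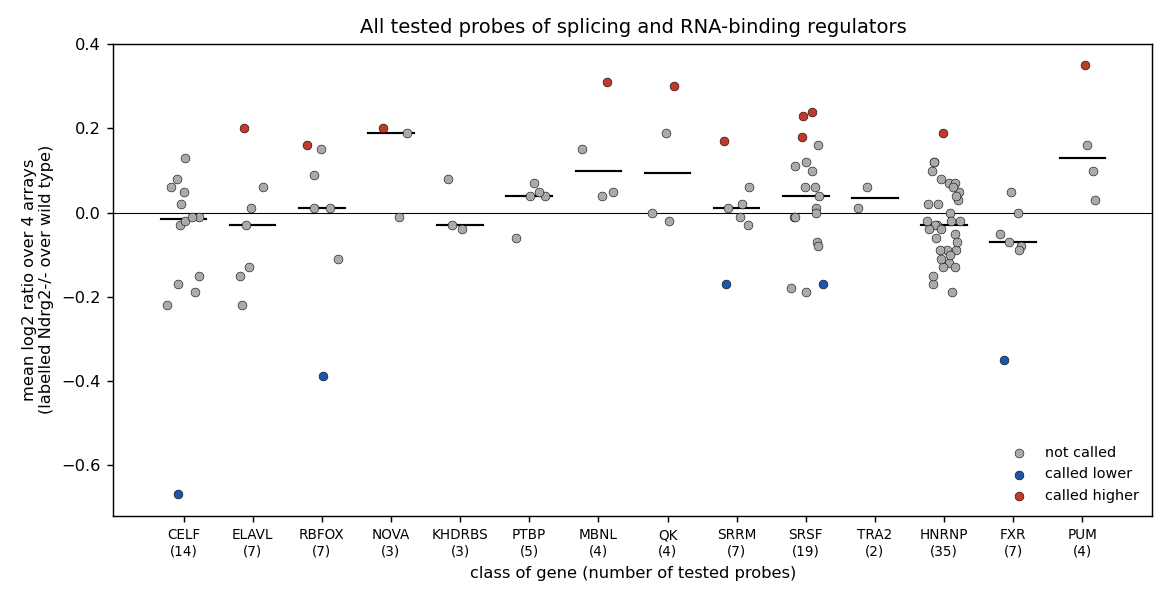
Mean log2 ratio of each of the 121 tested probes (labelled Ndrg2-/- over wild type, y axis) by class of gene (x axis, number of tested probes in parentheses). Each point is 1 probe, the bars are class medians, blue points were called lower and red points higher. Celf3 at -0.67 stands below all other probes, and most classes hold probes on either side of 0.

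The split of calls depended on how the arrays were scaled. With the scanner software's processed signals in place of loess-normalized raw signals, 4 member probes were called higher and 3 lower, where 4.16% and 3.76% of all tested probes were called in those directions. With median centring and no loess, 52 were called higher and 13 lower, and 29.6% and 33.7% of all tested probes were called in those directions. That scaling moved the members' median ratio to 0.12 while the median of all probes was at 0.00, so a sign is given below with its exceptions where a probe changed sign. Loess removes the trend of the ratio with signal strength, and median centring does not. Of the 16 calls, 9 were lost with the processed signals (Celf3, Elavl4, Rbfox3, Nova2, Mbnl2, Srrm1, Srrm3, Srsf1 and Hnrnpf), and 5, 4, 5 and 11 were kept without replicates 1 to 4 in turn. Higher calls were most common among the brightest 1% of tested probes, at 43.7%, and no member lies among them.

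Celf3 encodes a neuronal splicing activator of the CELF family, whose proteins bind GU-rich elements in precursor and mature messenger RNA. Its 1 probe (A_51_P106591, transcript NM_172434) is printed as 10 spots on each array. The Celf3 level was 10.34, 11.06, 11.33 and 11.22 in the samples labelled Ndrg2-/-, against 11.50, 11.64, 11.64 and 11.84 in the wild-type samples. All samples labelled Ndrg2-/- were below all wild-type samples, and the sample on array 1 was the lowest. The ratios on arrays 1 to 4 were -1.16, -0.58, -0.31 and -0.62, with a mean of -0.67 ± 0.36 (95% interval -0.95 to -0.39, limma adjusted p 0.0170). Of the 27664 tested probes, 14 had a lower mean ratio. The size varied between arrays more than for most probes: 0.882% of tested probes had an SD as large as that of Celf3. Leaving out replicate 2 ended the call (-0.70, adjusted p 0.0684), as did the use of processed signals (-0.69, adjusted p 0.0501), while the ratio stayed between -0.79 and -0.50 over the arrays left out in turn.

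The spots of the probe agreed closely within each array. On array 1 the 10 Celf3 spots lay between -1.21 and -1.13, on array 2 between -0.65 and -0.51, on array 3 between -0.38 and -0.25 and on array 4 between -0.68 and -0.54. The SD among spots was 0.02, 0.04, 0.05 and 0.05 on arrays 1 to 4, and the median over the 305 tested probes printed as replicate spots was 0.04. Spots of an array share the same 2 RNA samples and are not replicates. On arrays 1 to 4 the median ratio of the 7 meningeal probes was 0.68, 0.40, 0.25 and 0.67, and its part in the Celf3 result was not tested.

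**Figure D2:**
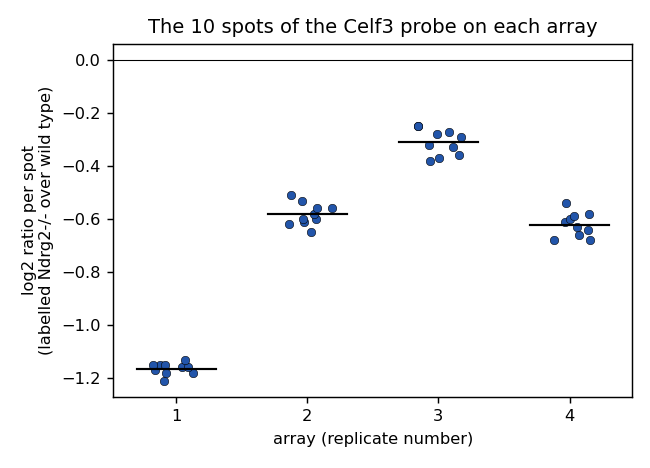
Log2 ratio (labelled Ndrg2-/- over wild type, y axis) of each of the 10 spots of the Celf3 probe on arrays 1 to 4 (x axis); bars are array means. All spots lie below 0, array 1 is lowest at -1.16 and array 3 is nearest to 0 at -0.31, with no overlap between array 1 and the others.

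None of the other 13 probes of the CELF family was called by limma, where 12.9% of all tested probes were, so for a set of 13 a count of 0 is near the share of the array. At an unadjusted p under 0.05 there were 3 of the 13, against 31.7% of all tested probes. Their median ratio was -0.01, their range was -0.22 to 0.13, and 8 were below 0, against 12876 of all 27664 tested probes. Every one of the 13 was above Celf3 on each of the 4 arrays, as the choice of Celf3 for its decrease makes likely. The lowest bound of their 95% intervals was -0.42, for Celf5, and the Celf3 interval reached up to -0.39. Celf3 minus the median of the other CELF probes was -1.16, -0.53, -0.29 and -0.56 on arrays 1 to 4, with a mean of -0.64. This difference was not tested, since Celf3 was chosen for its decrease, and it lay between -0.75 and -0.46 under the alternative settings.

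The other CELF genes were Celf1, an mRNA decay and splicing factor made in most tissues, Celf2, its relative in brain and heart, Celf4, a regulator of excitatory neurons, and the neural genes Celf5 and Celf6. Celf1 had ratios of 0.05 ± 0.03 (adjusted p 0.406), 0.06 ± 0.18 (0.588) and -0.15 ± 0.11 (0.0883) for its 3 probes. In the last of these, A_55_P2282257, the levels were 11.77, 11.75, 11.80 and 11.78 in the samples labelled Ndrg2-/-, against 11.96, 11.86, 11.83 and 12.06 in wild type, so the groups did not overlap although the call was missed. Celf2 had ratios of -0.01 ± 0.03, 0.02 ± 0.10 and 0.08 ± 0.10, with adjusted p from 0.305 to 0.884. Its 3 intervals together reached from -0.10 to 0.19.

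Celf4 had a ratio of -0.19 ± 0.12 in its brighter probe (adjusted p 0.0522) and of -0.03 ± 0.12 in its other probe (adjusted p 0.771). The brighter Celf4 probe was below 0 on all arrays, at -0.07, -0.26, -0.12 and -0.33, but its levels of 15.05, 14.98, 15.14 and 15.07 in the samples labelled Ndrg2-/- overlapped those of 15.12, 15.24, 15.26 and 15.39 in wild type. It had the opposite sign, 0.13, under median centring. Celf5 had ratios of -0.02 ± 0.04 (adjusted p 0.696), -0.22 ± 0.24 (0.124) and -0.01 ± 0.06 (0.892), and the middle probe ran from -0.54 on array 4 to 0.04 on array 1.

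Celf6 had 2 probes that lay apart: 0.13 ± 0.35 for A_55_P1979848 (adjusted p 0.466) and -0.17 ± 0.22 for A_66_P126428 (adjusted p 0.182). On arrays 1 to 4 the ratios of A_55_P1979848 were 0.37, -0.38, 0.29 and 0.25, and those of A_66_P126428 were -0.05, -0.50, -0.05 and -0.09. Array 2 was lowest in each probe. Without replicate 2 the ratio of A_55_P1979848 was 0.31 and the probe was called higher (adjusted p 0.0432). With median centring and no loess, 5 of the 13 CELF probes other than Celf3 were called higher and 1 lower. Of all tested probes, 29.6% and 33.7% were called in those directions. The median ratio of the 13 probes was 0.13 in that setting. The Celf3 ratio was then -0.52 (adjusted p 0.00662).

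**Figure D3:**
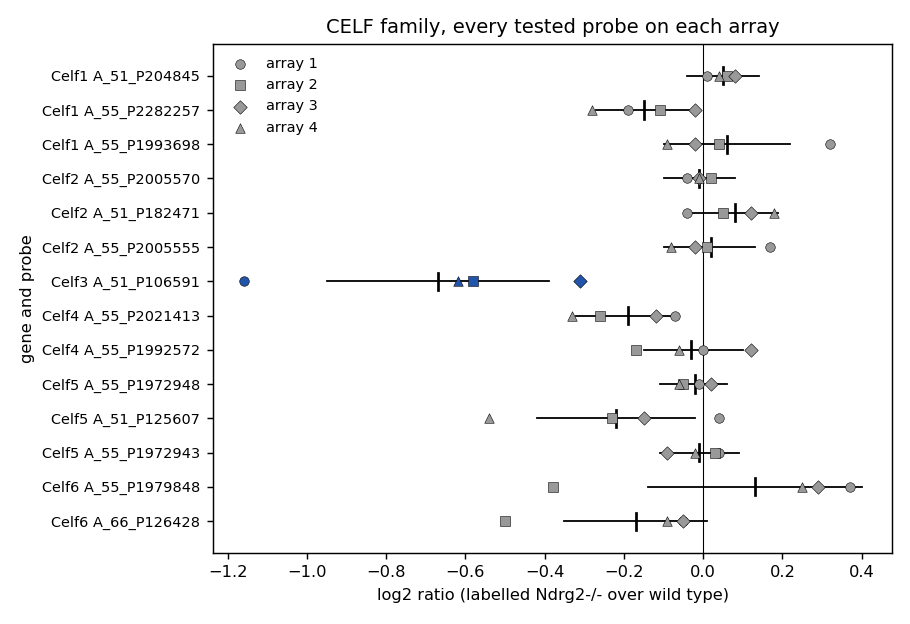
Log2 ratio (labelled Ndrg2-/- over wild type, x axis) of every tested CELF probe (rows) on arrays 1 to 4 (circle, square, diamond, triangle). Vertical ticks are means and horizontal lines are 95% intervals; the called Celf3 probe is in blue at a mean of -0.67, and the means of the other probes run from -0.22 to 0.13.

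The neuronal ELAVL proteins (Elavl2, Elavl3 and Elavl4) bind AU-rich elements, stabilize transcripts and also act in splicing, and Elavl1 is the widely made member of the family. Of 7 probes, 1 was called higher and none lower (14.3% called, against 12.9% of all tested probes). In classes of so few probes, such a share rests on single calls. The called Elavl4 probe, A_55_P1990314, had levels of 12.08, 12.14, 12.06 and 11.77 in the samples labelled Ndrg2-/-, against 11.82, 11.95, 11.79 and 11.69 in wild type. The sample labelled Ndrg2-/- on array 4 lay within the wild-type range, so the groups overlapped. The ratio was 0.20 ± 0.09 (limma adjusted p 0.0333), and the call was lost without replicates 1, 2 or 3 (0.18 to 0.20, adjusted p 0.108 to 0.123). The other Elavl4 probe, A_55_P1990309, had a ratio of -0.22 ± 0.16 (adjusted p 0.0579) and was below 0 on all arrays.

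Elavl3 had a ratio of -0.13 ± 0.03 (adjusted p 0.0645). Its levels of 13.93, 13.92, 13.97 and 13.93 in the samples labelled Ndrg2-/- were all below those of 14.03, 14.02, 14.13 and 14.08 in wild type, and the sign turned under median centring (0.13). Elavl1 had a ratio of 0.06 ± 0.05 and Elavl2 of 0.01 ± 0.06 in their brightest probes (adjusted p 0.324 and 0.855). The sign of that Elavl2 probe turned without replicate 4 (-0.01).

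RBFOX proteins bind a conserved hexamer beside neuronal and muscle exons, and Rbfox3 is the neuronal nuclear antigen NeuN. Of 7 probes, 1 was lower and 1 higher (14.3% each, against 5.54% lower and 7.41% higher of all tested probes). Rbfox2 probe A_55_P1982019 (transcript NM_175387) had levels of 11.74, 11.64, 11.90 and 12.19 in the samples labelled Ndrg2-/-, against 12.18, 12.16, 12.21 and 12.46 in wild type. On every array the sample labelled Ndrg2-/- was the lower of the pair, and the groups overlapped only through array 4. Its ratio was -0.39 ± 0.11 (limma adjusted p 0.00680), next in size to Celf3 among the lower calls, and the call was kept under all 11 alternatives, from -0.43 to -0.21. The other Rbfox2 probe, A_52_P310530 (transcript NM_053104), had a ratio of 0.01 ± 0.10 (adjusted p 0.905), which turned to -0.03 without replicate 3.

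The brightest Rbfox3 probe, A_55_P1993777, had levels of 14.99, 15.00, 14.94 and 14.93 in the samples labelled Ndrg2-/-, against 14.81, 14.81, 14.75 and 14.85 in wild type, with no overlap. Its ratio was 0.16 ± 0.06 (limma adjusted p 0.0459), and the call was lost without replicates 1, 2 or 3 (0.14 to 0.15, adjusted p 0.128 to 0.158) and with processed signals (0.14, adjusted p 0.0891). It was also lost with no filter on dim probes (adjusted p 0.0601) and with an intensity trend in the variances (adjusted p 0.0511), at an unchanged ratio. A second Rbfox3 probe had 0.15 ± 0.07 (adjusted p 0.0588), and the third, A_51_P313651, had -0.11 ± 0.09 (adjusted p 0.150). Rbfox1, the third family member, had 0.09 ± 0.04 in its brightest probe (adjusted p 0.157).

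The NOVA proteins are neuronal splicing factors first known as targets of antibodies in a paraneoplastic ataxia. The class had 3 tested probes, and 1 was called higher (33.3%, against 7.41% of all tested probes). Nova2 was higher, with levels of 10.87, 10.81, 10.67 and 10.78 in the samples labelled Ndrg2-/-, against 10.57, 10.56, 10.52 and 10.66 in wild type. The groups came close but did not overlap. Its ratio was 0.20 ± 0.08 (limma adjusted p 0.0279), and the call was lost without replicates 1, 2 or 3 (0.17 to 0.22, adjusted p 0.0751 to 0.113). Nova1 had 0.19 ± 0.19 in its brightest probe (adjusted p 0.107), from -0.03 on array 1 to 0.41 on array 4. Its other probe, annotated to the same transcript, had -0.01 ± 0.05 (limma adjusted p 0.91).

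No probe was called among the 3 KHDRBS probes or the 5 PTBP probes, where 12.9% of all tested probes were. In sets this small, counts of 0 are near the share of the array. Khdrbs1 (Sam68) had a ratio of -0.04 ± 0.09, and its neuronal relatives Khdrbs2 and Khdrbs3 had -0.03 ± 0.08 and 0.08 ± 0.11. Ptbp1, the repressor of neuronal exons that neurons lose as they mature, had 0.04 ± 0.06, its neuronal paralog Ptbp2 had -0.06 ± 0.19, and Ptbp3 had 0.07 ± 0.22. The adjusted p of these probes lay between 0.297 and 0.687. The 95% interval was -0.05 to 0.14 for Ptbp1 and -0.23 to 0.10 for Ptbp2.

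The MBNL proteins, which expanded CUG repeats sequester in myotonic dystrophy, act in brain mainly through Mbnl2. Of 4 tested probes, 1 Mbnl2 probe was called higher (25%, against 7.41% of all tested probes). Mbnl2 probe A_51_P189269 had levels of 11.10, 11.07, 10.98 and 11.29 in the samples labelled Ndrg2-/-, against 10.91, 10.84, 10.67 and 10.79 in wild type, without overlap. Its ratio was 0.31 ± 0.14 (limma adjusted p 0.0179), which passed the threshold neither without replicate 2 (0.33, adjusted p 0.0653) nor without replicate 3 (0.31, adjusted p 0.0617) nor with processed signals (0.30, adjusted p 0.0603). The other Mbnl2 probes had 0.15 ± 0.08 (adjusted p 0.0624) and, for the brightest, 0.05 ± 0.10 (adjusted p 0.490). Mbnl1 had 0.04 ± 0.07 (adjusted p 0.535).

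Qk encodes Quaking, a splicing and mRNA-binding protein of glia that is needed for myelin. Of its 4 probes, A_55_P2143150 was called higher (25%, against 7.41% of all tested probes). Its levels were 12.91, 12.83, 12.89 and 12.83 in the samples labelled Ndrg2-/-, against 12.43, 12.48, 12.68 and 12.65 in wild type, and the groups did not overlap. The ratios on arrays 1 to 4 were 0.47, 0.35, 0.21 and 0.18 (mean 0.30 ± 0.14, limma adjusted p 0.0190). It passed the threshold neither without replicate 1 (0.25, adjusted p 0.0581) nor without replicate 2 (0.29, adjusted p 0.0853). The other 3 Qk probes had 0.19 ± 0.16 (adjusted p 0.0860), 0.00 ± 0.10 (0.968) and, for the brightest, -0.02 ± 0.06 (0.778). Among markers of the cells that make Qk, 3 of 11 astrocyte probes were higher (median 0.19, range 0.13 to 0.62). So were 2 of 7 oligodendrocyte probes (median 0.01, range -0.05 to 0.77), where 7.41% of all tested probes were higher. Their part in the Qk result was not tested, and in bulk tissue more cells of a type cannot be told apart from more RNA per cell.

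Among the SRRM genes, Srrm1 encodes a general splicing coactivator, while Srrm3 and Srrm4 promote neuronal microexons. Of 7 probes, 1 was lower and 1 higher (14.3% each, against 5.54% lower and 7.41% higher of all tested probes). Srrm1 probe A_55_P1973387 had levels of 12.95, 12.95, 13.17 and 13.06 in the samples labelled Ndrg2-/-, against 13.16, 13.16, 13.29 and 13.20 in wild type, and the groups overlapped by a small margin. Its ratio was -0.17 ± 0.05 (limma adjusted p 0.0311). This call was lost when any of the 4 arrays was left out (-0.19 to -0.16, adjusted p 0.0543 to 0.123), and the sign turned under median centring (0.03, adjusted p 0.537). The other Srrm1 probe had 0.02 ± 0.04.

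Srrm3 probe A_55_P2119249 had levels of 12.84, 12.81, 12.86 and 12.77 in the samples labelled Ndrg2-/-, against 12.61, 12.66, 12.71 and 12.63 in wild type, without overlap. Its ratio was 0.17 ± 0.04 (limma adjusted p 0.0311), and the call was lost when any array was left out (0.15 to 0.18, adjusted p 0.0563 to 0.104). A far dimmer Srrm3 probe had 0.01 ± 0.13. Srrm4 had -0.03 ± 0.09 (adjusted p 0.726).

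The SR proteins bind exonic enhancers and recruit the spliceosome. Of 19 SRSF probes, 3 were higher and 1 was lower. That makes 15.8% higher and 5.26% lower, against 7.41% and 5.54% of all tested probes. Srsf4 had levels of 11.90, 11.89, 11.82 and 11.85 in the samples labelled Ndrg2-/-, against 11.62, 11.72, 11.58 and 11.57 in wild type, and its ratio was 0.24 ± 0.06 (limma adjusted p 0.0144). Srsf10, a repressor of splicing in its dephosphorylated form, had levels of 9.68, 9.76, 9.74 and 9.96 in the samples labelled Ndrg2-/-, against 9.48, 9.56, 9.53 and 9.66 in wild type, and its ratio was 0.23 ± 0.05 (adjusted p 0.0152). Neither of these probes had overlapping groups. The Srsf4 ratio missed the threshold when replicate 1 (0.23, adjusted p 0.0562) or 3 (0.24, adjusted p 0.0571) was left out, and the Srsf10 ratio when replicate 1, 2 or 3 was left out (0.23 to 0.24, adjusted p 0.0505 to 0.0655). The called Srsf10 probe is the brightest of the gene. Its other, dimmer probes were not called, at 0.06 ± 0.12 (limma adjusted p 0.45) and -0.01 ± 0.06 (adjusted p 0.897).

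Srsf1, the founding SR protein, had 3 probes in disagreement. Probe A_55_P1964477 was higher, with levels of 10.71, 10.72, 10.71 and 10.80 in the samples labelled Ndrg2-/-, against 10.62, 10.55, 10.53 and 10.51 in wild type (ratio 0.18 ± 0.08, limma adjusted p 0.0391). The brightest Srsf1 probe had 0.12 ± 0.07 (adjusted p 0.116) and A_51_P485899 had -0.19 ± 0.14 (adjusted p 0.0766), although all 3 are annotated to the same transcript. The call of A_55_P1964477 was lost when any array was left out (0.15 to 0.21, adjusted p 0.0670 to 0.120) and with processed signals (0.16, adjusted p 0.121), and A_51_P485899 was called lower without replicate 4 (-0.25, adjusted p 0.0319).

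Srsf9 was lower, with levels of 11.31, 11.22, 11.23 and 11.43 in the samples labelled Ndrg2-/-, against 11.51, 11.44, 11.37 and 11.55 in wild type. The groups overlapped. Its ratio was -0.17 ± 0.04 (limma adjusted p 0.0320), and the call was lost when any array was left out (-0.19 to -0.16, adjusted p 0.0508 to 0.125) and under median centring (-0.02, adjusted p 0.745). The TRA2 proteins, activators related to the SR family, had no call in 2 probes, where 12.9% of all tested probes were called. Tra2a had 0.06 ± 0.20 and Tra2b had 0.01 ± 0.06.

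The HNRNP class was the largest, with 35 tested probes of 20 genes. Of these, 1 probe (2.86%, against 7.41% of all tested probes) was higher and none was lower, where 5.54% of all tested probes were. The median ratio was -0.03, and 22 of the 35 probes were below 0, against 12876 of all 27664 tested probes. The called gene was Hnrnpf, which binds runs of G. Its levels were 11.82, 11.78, 11.73 and 11.96 in the samples labelled Ndrg2-/-, against 11.63, 11.60, 11.63 and 11.69 in wild type, without overlap. The ratio was 0.19 ± 0.07 (limma adjusted p 0.0306), and the call was lost when any array was left out (0.16 to 0.21, adjusted p 0.0668 to 0.106). The other Hnrnpf probe had 0.06 ± 0.11.

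Hnrnpc, which binds uridine tracts, lies 4 places from Ndrg2 in the order of genes on chromosome 14 with tested probes. Its probes had ratios of 0.05 ± 0.05 (adjusted p 0.449) and -0.05 ± 0.10 (adjusted p 0.492). Between Ndrg2 and Hnrnpc, Arhgef40 was higher (0.20 ± 0.02, limma adjusted p 0.0173), and Zfp219 had 0.00 ± 0.22 (adjusted p 0.993) and Tmem253 0.07 ± 0.03 (adjusted p 0.261). Beyond Hnrnpc, Rpgrip1 had 0.23 ± 0.05 (limma adjusted p 0.0160) and Supt16 had 0.72 ± 0.11 (adjusted p 0.000753), both higher. On the other side of Ndrg2, Ang4 (-0.60 ± 0.13, adjusted p 0.00142) and Mettl17 (-0.22 ± 0.14, adjusted p 0.0468) were lower. The other genes within 6 places on that side were not called. They were Slc39a2 (0.09 ± 0.10), Ear6 (0.03 ± 0.11), Gm5800 (0.00 ± 0.07) and Gm5622 (-0.04 ± 0.19). Mbnl2, the other member on this chromosome, lies 289 places away.

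The FXR class holds Fmr1, the fragile X gene, with its paralogs Fxr1 and Fxr2, and the neighbours Fmr1nb and Fmr1os that share the start of the symbol. Of 7 tested probes, 1 was lower (14.3%, against 5.54% of all tested probes). It belonged to Fmr1nb, which is not a known splicing factor. Fmr1nb had levels of 8.22, 8.13, 8.73 and 8.80 in the samples labelled Ndrg2-/-, against 8.77, 8.34, 9.02 and 9.14 in wild type. The groups overlapped, but each sample labelled Ndrg2-/- was the lower of its array. The ratio was -0.35 ± 0.15 (limma adjusted p 0.0149), and the call was kept under all 11 alternatives, from -0.47 to -0.28. The other Fmr1nb probe is annotated to the same transcript. It stood well above background on no array in either channel, so the signal of the called probe has no second probe beside it. Fmr1 itself had 3 probes at -0.07 ± 0.10, -0.05 ± 0.02 and 0.00 ± 0.11, Fxr1 had -0.08 ± 0.07 and -0.09 ± 0.06, and Fxr2 had 0.05 ± 0.06.

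Pumilio proteins repress the translation and stability of transcripts with a Pumilio element, and Pum2 does so in dendrites. The class had 4 tested probes, and 1 was called higher (25%, against 7.41% of all tested probes). Pum2 probe A_55_P2083224 had levels of 12.11, 12.06, 12.21 and 12.20 in the samples labelled Ndrg2-/-, against 11.75, 11.78, 11.83 and 11.83 in wild type. The groups did not overlap, and the ratios of 0.36, 0.27, 0.38 and 0.37 varied little between arrays. Its mean of 0.35 ± 0.05 (limma adjusted p 0.00387) was the largest of the higher calls, and the call was kept under all 11 alternatives, from 0.34 to 0.52. The other Pum2 probe had 0.16 ± 0.07 (adjusted p 0.0522), and Pum3 had 0.10 ± 0.09.

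**Figure D4:**
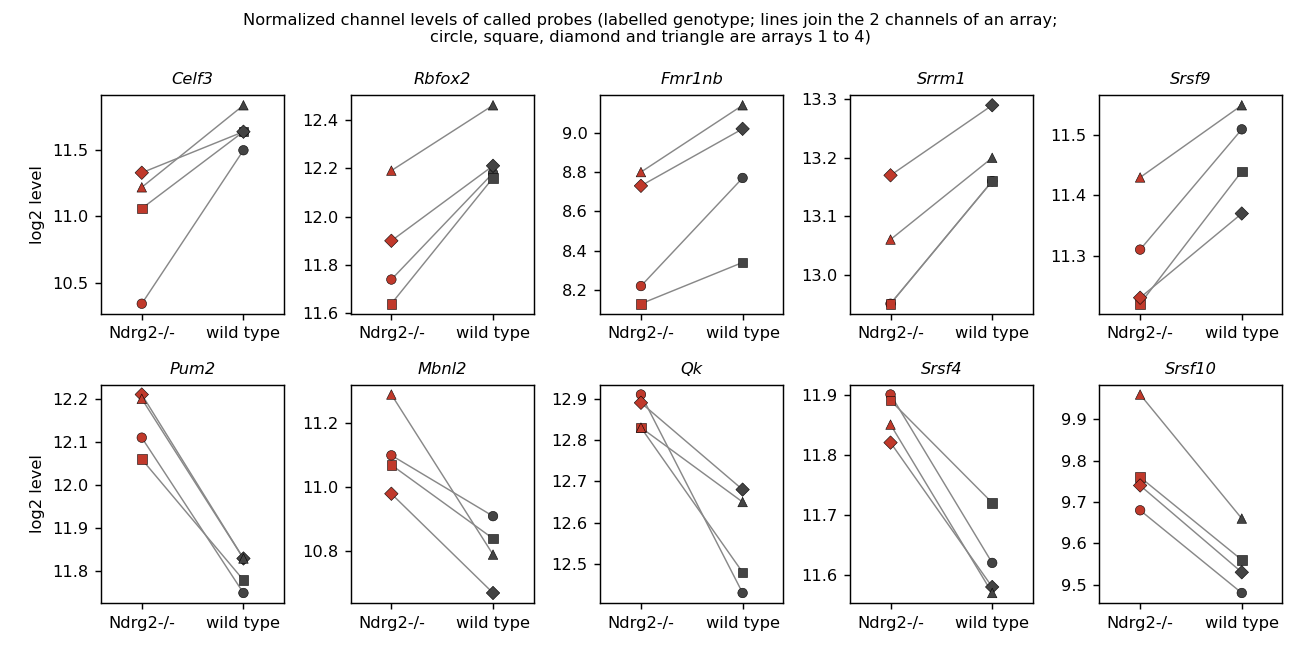
Normalized log2 level (y axis, a separate scale for each probe) of the 5 probes called lower (top row) and the 5 probes with the largest higher ratios (bottom row), for the samples labelled Ndrg2-/- (red, left) and wild type (dark, right). Lines join the 2 channels of an array; every line falls to the left in the top row and rises to the left in the bottom row, and the Celf3 line of array 1 is the steepest of its panel.

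Many of these genes have several probes, and the probes of a gene did not always move alike. Of the 38 member genes with more than 1 tested probe, each other probe was compared with the gene's brightest probe by limma on the within-array difference of ratios, a test chosen after the probe values had been seen. Of 54 such pairs, 14 differed (25.9%), against 15.9% of the 5005 pairs of all genes. The median size of the difference was 0.10 for the members and 0.09 for all genes. Whether the 2 shares differ was not tested.

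The largest differences were in Elavl4 and Rbfox2, and they were called in all alternatives run. For Elavl4, probe A_55_P1990309 minus A_55_P1990314 was -0.32, -0.43, -0.42 and -0.50 on arrays 1 to 4 (mean -0.42 ± 0.08, limma adjusted p 0.00500), although both are annotated to the same transcript. For Rbfox2, probe A_52_P310530 minus A_55_P1982019 was 0.45, 0.40, 0.45 and 0.28 (mean 0.40 ± 0.08, adjusted p 0.00626), and these probes are annotated to different transcripts of the gene. In Qk, the called probe A_55_P2143150 minus the brightest probe was 0.32 ± 0.09 (adjusted p 0.0112), which missed the threshold when replicate 2 (0.31, adjusted p 0.0580) or 3 (0.33, adjusted p 0.0556) was left out. These Qk probes are annotated to different transcripts, but the called probe shares its transcript with the probes at 0.19 and 0.00.

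The other differing pairs were in Srsf1 (-0.30), Celf6 (-0.30), Rbfox3 (-0.26), Mbnl2 (0.26), Hnrnpa2b1 (-0.24), Srsf10 (-0.24), Hnrnpa3 (-0.20 and -0.16), Celf1 (-0.20), Srrm1 (0.19) and Pum2 (-0.19), each given as the probe minus the brightest probe of the gene. In 12 of the 14 pairs the 2 probes had opposite signs, some with a value close to 0, and in Mbnl2 and Pum2 they shared a sign. The Srsf10 probe set against the brightest, A_55_P1978810, was among the dimmest tested, at a brightness percentile of 2.71. That pair was not called with processed signals or the deposited values, nor without replicate 2 or 3. Without replicates 1 to 4 in turn, 5, 5, 2 and 11 of the 54 pairs were called, against 5.49%, 3.72%, 2.96% and 13.4% of all pairs. Celf3, Fmr1nb and Srsf9 have 1 tested probe each, so their decreases were not seen by a second probe. Probe-specific dye effects and cross-hybridisation, for example among the closely similar Hnrnpa genes, cannot be told apart from a difference between transcripts here.

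**Figure D5:**
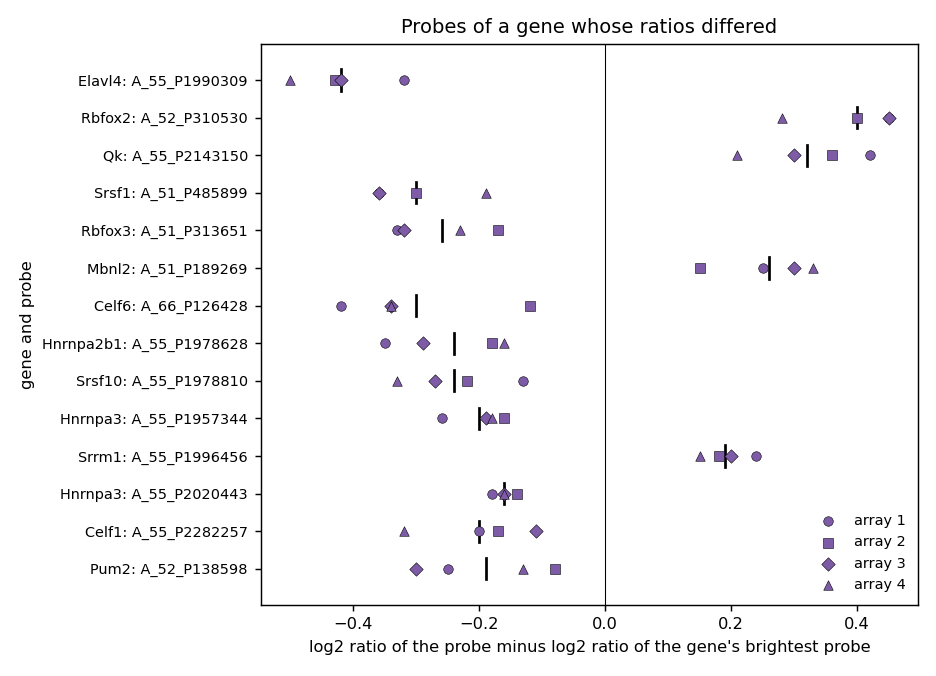
Difference of log2 ratios (labelled Ndrg2-/- over wild type) between a probe and the brightest probe of its gene (x axis) for the 14 member pairs that were called (rows), on arrays 1 to 4 (symbols); ticks are means. Elavl4 at -0.42 and Rbfox2 at 0.40 lie farthest from 0, and no pair crosses 0 on any array.

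Other genes of the splicing machinery were set beside the members by lists. In the core spliceosome list, 3 of 51 probes were higher and 5 lower, which makes 15.7% called, against 12.9% of all tested probes (median ratio -0.03). Prpf19, a ubiquitin ligase of the spliceosome, was lowest at -0.36 ± 0.23 (limma adjusted p 0.0307), with ratios of -0.66, -0.24, -0.14 and -0.39 on arrays 1 to 4. The U4/U6 particle protein Prpf3 had 0.28 ± 0.14 and the U1 protein Snrpa had 0.26 ± 0.08. With processed signals 1 spliceosome probe was higher and none lower, where 4.16% and 3.76% of all tested probes were called in those directions. Without replicates 1 to 4 in turn, 1, 1, 0 and 3 were higher and 0, 0, 1 and 1 were lower. Of all tested probes, 2.2%, 1.57%, 2.73% and 5% were then higher and 1.3%, 0.763%, 1.5% and 3.62% lower.

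Of 12 probes of the SR protein kinases and related kinases, 1 was higher (Prpf4b, 0.17 ± 0.08, limma adjusted p 0.0475) and none lower, with a median of 0.05. That makes 8.33% called, against 12.9% of all tested probes. No kinase probe was called without replicate 1 or 2 or with processed signals. Of all tested probes, 2.2%, 1.57% and 4.16% were higher and 1.3%, 0.763% and 3.76% lower in those settings. Among 59 probes of other RNA-binding proteins, 4 were higher and 5 lower, which makes 15.3% called, against 12.9% of all tested probes (median -0.01). Among them were Zfp36l2, an mRNA decay factor, at 0.27 ± 0.15, the stress granule protein G3bp2 at -0.27 ± 0.03, and the transport proteins Stau1 and Stau2 at 0.23 ± 0.05 and -0.26 ± 0.15. Leaving out any array reduced these calls to at most 2 higher and 1 lower. Over all tested probes the higher share was then 1.57% to 5% and the lower share 0.763% to 3.62%. In the main setting, another probe of Stau2 (-0.04 ± 0.05, limma adjusted p 0.508) was not called. The same held for another probe of G3bp2 (-0.11 ± 0.08, adjusted p 0.148) and of Prpf4b (0.10 ± 0.10, adjusted p 0.22). Celf3 at -0.67 was below every probe of these lists.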

How the data were processed

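Cortical RNA of 4 samples labelled Ndrg2-/- (Cy5) and 4 wild-type samples (Cy3) was read on 4 dual-colour Agilent arrays, all on 1 slide and in 1 scan per the file headers. Images were read with Agilent Feature Extraction. Its version is 11.0.1.1 in the file headers, while the submitters' processing notes name 10.7.3.1. Per the file headers, the deposited intensity is the median over a spot's pixels, by channel. Per the file headers, each spot also has a log10 ratio of its processed signals, red to green. The authors' deposited log2 values are that ratio in log2 by their own values, with array medians of 0.04, 0.03, -0.04 and -0.04, so not centred further.

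Raw intensities were turned into ratios in R 4.3.3 (limma 3.58.1, data.table version 1.17.8). Background was corrected by normexp (offset 50) and arrays were normalized by loess, with control spots at weight 0. Over the 4 arrays 802 outlier spots were left out, no spot was saturated, and spots of a probe were averaged. Of 39429 probes, the 27664 that stood well above background in a channel or in both on every array were tested, each on its own, with limma's lmFit and eBayes (residual df 3, prior df 4.47) and Benjamini-Hochberg adjustment over all of them. The ratio within an array pairs the samples of a replicate number. Channel levels were taken after loess and Aquantile. The pipeline was tested on simulated data.

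Symbols came from matching transcript accessions to the RefSeq gene table of GRCm38.p6 (27427 probes, 20832 genes). The array annotation uses another build, so no coordinates are given. Named with values are every CELF probe, every called member, the brightest probe of each neuronal class gene or of a class without calls, members on chromosome 14, probes opposed to a called probe, and up to 4 called genes of each other list. A few further probes were named after their values were seen, as values only. The members, the lists and the naming rule were chosen with earlier results of these data known. The number of arrays limits the precision. Values of a few genes are not reported here.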

Additional observations from a re-analysis of the deposited data

Results flagged for a closer look

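Of the 53 named probes, 5 had 1 array that lay far from the other 3, where chance alone flags about 1 in 20 groups of 4. In Celf6 this was array 2 in both probes, at -0.38 for A_55_P1979848 (the others lay between 0.25 and 0.37) and at -0.50 for A_66_P126428 (the others lay between -0.09 and -0.05). In the Rbfox3 probe A_51_P313651 array 2 was at 0.02, against -0.16 to -0.13 on the other arrays. In the Srrm3 probe A_55_P2119249 array 1 was at 0.22, against 0.15 on each of the others. In the Srsf10 probe A_55_P1970389 array 4 was at 0.30, against 0.20 to 0.21 on the others. The Celf3 array at -1.16 did not meet this criterion.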

How the results depend on the processing

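The arrays were few and no array had its dyes exchanged, which limits every count here. Of the 16 called members, 3 (Rbfox2, Fmr1nb and Pum2) were called under all 11 alternatives. The processed signals and the deposited values count as separate alternatives but rest on the same ratios, so they are not separate checks. Probes called lower numbered 5 in the main setting, 3 with processed signals, 3 with the deposited values, 13 with median centring without loess, and 2 to 6 with an array left out. Over all tested probes the lower share was 5.54% in the main setting, 3.76% with processed signals or the deposited values, 33.7% with median centring, and 0.763% to 3.62% with an array left out. Probes called higher numbered 11 in the main setting, 4 with processed signals, 4 with the deposited values, 52 with median centring without loess, and 2 to 8 with an array left out. The higher share of all tested probes was 7.41%, 4.16%, 29.6%, and 1.57% to 5.0% in those settings. Fewer samples were tested with an array left out, and otherwise the cause was not tested. Celf3 was at -0.69 with processed signals and with the deposited values (adjusted p 0.0501 in each), and between -0.79 and -0.50 with an array left out. Celf3 minus the median of the other CELF probes lay between -0.75 and -0.46 and kept its sign. No paired analysis beyond the ratio itself was possible because each ratio already pairs the samples of a replicate number.

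Another sign appeared in 34 values of 21 probes, of which 1 (Srrm1 A_55_P1973387) was called in the main setting. The 34 values count processed signals and deposited values separately. Median centring gave the opposite sign to Celf1 A_55_P2282257 (0.01), Celf2 A_55_P2005570 (0.28), Celf4 A_55_P2021413 (0.13), Celf4 A_55_P1992572 (0.26), Celf5 A_55_P1972948 (0.26), Elavl3 A_51_P305230 (0.13), Rbfox3 A_51_P313651 (0.05), Khdrbs1 A_52_P574697 (0.12), Ptbp2 A_66_P123643 (0.04), Ptbp3 A_55_P2009567 (-0.02), Qk A_51_P434670 (0.20), Srrm1 A_55_P1973387 (0.03) and Hnrnpc A_52_P218537 (0.09). Processed signals and the deposited values did so for Ptbp3 A_55_P2009567 (-0.01), Srrm1 A_55_P1996456 (-0.02) and Srsf10 A_55_P1978810 (0.17), and omitting background correction for Rbfox2 A_52_P310530 (0.00), Srrm1 A_55_P1996456 (0.00) and Srsf10 A_55_P1978810 (0.05). Leaving out 1 array in turn gave values on either side of 0, or rounded to 0, for Celf1 A_55_P1993698 (-0.03 to 0.11), Celf2 A_55_P2005570 (-0.02 to 0.00), Celf2 A_55_P2005555 (-0.03 to 0.05), Celf4 A_55_P1992572 (-0.07 to 0.02), Celf5 A_55_P1972943 (-0.03 to 0.02), Elavl2 A_55_P2291054 (-0.01 to 0.03), Rbfox2 A_52_P310530 (-0.03 to 0.05), Ptbp2 A_66_P123643 (-0.14 to 0.01), Ptbp3 A_55_P2009567 (-0.01 to 0.15), Qk A_51_P434670 (-0.04 to 0.00), Srsf10 A_55_P1978810 (-0.04 to 0.01) and Tra2a A_51_P513163 (0.00 to 0.15).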
